A study of Homo sapiens with 65 samples.

Results

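The replication-dependent histone genes encode the proteins that wrap newly copied DNA. They were taken as the protein-coding genes of the deposited count table whose identifier GENCODE 29 names with a symbol starting HIST1H, HIST2H, HIST3H or HIST4H, which gave 71 of 58302 genes. Of these, 6 encode the linker histone H1, 17 encode H2A, 18 encode H2B, 15 encode H3 and 15 encode H4. The HIST1 cluster on chromosome 6 holds 55 of them, chromosome 1 holds 15 in the HIST2 and HIST3 clusters, and HIST4H4 lies alone on chromosome 12.

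Their RNA was measured in 65 libraries of H9, a human embryonic stem cell line that carries 1 mCherry reporter allele at SOX17 and 1 GFP reporter allele at RUNX1C (SOX17 mCHERRY/w RUNX1C GFP/w). All groups share these reporters. The KO line is RUNX1 -/-, with the part of RUNX1 that binds DNA deleted by CRISPR. RUNX1 is a transcription factor that blood formation needs, and the parental line is called WT. The number of clones behind the KO line was not given in the labels used here. In the mesoderm protocol, KO and WT cells were taken unsorted on days 0, 2 and 4, with 4 libraries for each genotype and day. Its medium (STAPEL) held BMP4, ACTIVIN A, VEGF, SCF and FGF2 up to day 4, with SB431542, an inhibitor of activin receptors, and CHIR 99021, an activator of Wnt signalling, from day 2. From day 4 it held VEGF, SCF, FGF2 and IGF2. On day 7 the CD34+CD43- cells, called endothelium by the submitters, were sorted into SOX17-positive cells (4 KO and 4 WT libraries) and SOX17-negative cells (3 KO and 4 WT libraries). On day 12 the groups were SOX17+CD34+CD43- endothelium (4 KO and 4 WT libraries), SOX17+CD34+CD43+ cells (2 WT libraries) and SOX17-CD34+CD43+ blood cells (3 WT libraries). A single KO SOX17-CD34+CD43- library of day 12 entered no test. In the endoderm protocol, unsorted WT cells were taken on days 0, 2, 4 and 7 with 3 libraries each, after Act A with CHIR and the kinase inhibitor PI-103 and then Act A with DMH-1, which blocks BMP receptors. The genotype field of the KO samples of days 2 and 4 does not name the RUNX1 deletion, while their titles say KO, and the titles were followed. The labels do not say whether replicates came from separate cultures, so p-values measure the spread between libraries.

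Most members of this family are transcribed in S phase, when the coactivator NPAT drives them, and the messenger is destroyed when DNA synthesis stops. Their messengers end in a conserved stem-loop bound by SLBP in place of a poly(A) tail. Several members can also be processed to polyadenylated messengers, which are known from differentiated and non-dividing cells. HIST1H1C, HIST1H2AC, HIST1H2BD, HIST1H2BK and HIST2H2BE are listed here as members known for this.

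The stem-loop is shown for members on which the results turn, each with 5 bases on either side, because it is where most of these messengers end. It does not separate the members known for polyadenylated forms, since HIST1H2AC and HIST2H2BE have the same one as HIST1H2BH. The 16 bases of the stem-loop are in capitals, each sequence is read 5′ to 3′ along the GRCh38 strand named, and the match was made in the GENCODE 29 transcripts.
HIST1H4I, chr6:27139649-27139674, + strand: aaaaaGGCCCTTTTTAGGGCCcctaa
HIST1H2AC, chr6:26124664-26124689, + strand: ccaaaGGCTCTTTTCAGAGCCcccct
HIST1H2BD, chr6:26158582-26158607, + strand: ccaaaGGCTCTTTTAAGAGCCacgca
HIST2H2BE, chr1:149886183-149886208, - strand: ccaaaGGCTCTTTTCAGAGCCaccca
HIST1H2BH, chr6:26252050-26252075, + strand: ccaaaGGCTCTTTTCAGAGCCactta
HIST1H3E, chr6:26225591-26225616, + strand: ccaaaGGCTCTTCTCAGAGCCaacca
HIST1H3G, chr6:26270918-26270943, - strand: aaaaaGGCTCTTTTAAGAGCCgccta

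The search took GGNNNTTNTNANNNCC on the transcript strand with all 6 pairs of the stem closed, G-T pairs allowed. It was found in the annotated transcripts of 32 of 71 members and in 0.175% of all 206694 transcripts. The form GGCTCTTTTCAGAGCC stood in 17 members. HIST1H3E alone had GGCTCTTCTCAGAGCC, and all 3 members with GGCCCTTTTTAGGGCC (HIST1H4I, HIST2H4A and HIST2H4B) encode H4. For 34 members the annotated model is the coding sequence alone, HIST1H1C and HIST1H2BK among them, so no stem-loop could be found there. In 23 members the model runs on for over 100 bases past the stem-loop, by 1114 bases in HIST1H2AC, 1729 in HIST2H2BE, 1640 in HIST1H2BH, 1862 in HIST1H3E and 212 in HIST1H4I. In 16 of these 23 an annotated transcript has an AATAAA, the signal for polyadenylation, within 30 bases of its end. That transcript is not always one with the stem-loop.

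The bases just before the RefSeq start site are shown for HIST2H2BE and HIST1H4I, on which the endoderm and endothelium results turn. These 250 bases come from RefSeq on GRCh38.p14, with capitals marking CCAAT as well as the TATAAA box and the octamer ATTTGCAT on either strand. The HIST2H2BE stretch lies between that gene and HIST2H2AC, an H2A gene on the other strand. The GENCODE 29 model of HIST1H4I starts further upstream than the RefSeq start, so the HIST1H4I stretch lies inside that model.
HIST2H2BE, chr1:149886683-149886932, - strand: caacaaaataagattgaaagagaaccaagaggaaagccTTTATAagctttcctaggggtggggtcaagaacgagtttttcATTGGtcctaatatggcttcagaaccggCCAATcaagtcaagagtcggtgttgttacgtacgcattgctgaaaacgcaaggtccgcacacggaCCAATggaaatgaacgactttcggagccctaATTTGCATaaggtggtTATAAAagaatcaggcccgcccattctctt
HIST1H4I, chr6:27139032-27139281, + strand: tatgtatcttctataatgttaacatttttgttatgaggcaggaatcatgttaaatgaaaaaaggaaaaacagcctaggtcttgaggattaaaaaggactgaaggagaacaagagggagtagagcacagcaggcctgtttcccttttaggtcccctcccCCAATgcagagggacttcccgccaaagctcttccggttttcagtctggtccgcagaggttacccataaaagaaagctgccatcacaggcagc

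The table of promoters, from 250 bases before to 50 after each start, held 70 promoters of 66 members among 35116. CCAAT stood in 85.7% of the members' promoters and in 34.6% of all promoters. TATAAA stood in 67.1% of the members' and 11.5% of all, and ATTTGCAT, the octamer, in 38.6% of the members' and 1.77% of all. The octamer was in 15 of 20 H2B promoters and 11 of 16 H2A promoters, against 1 of 15 H3, 0 of 13 H4 and 0 of 6 H1 promoters. The 1 H3 stretch is also counted among the H2A promoters, as the same bases. Alternative starts of a member count as separate promoters, also where they lie a few bases apart. CCAAT was in 3 of 13 H4 promoters and in each of those of the other 4 kinds. No 2 of these motifs overlapped in a member's promoter. These matches describe letters in a window and are not binding sites.

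Histone RNA was a small share of every library. The members' counts summed to between 195 and 1499 fragments per library, with a median of 561, out of 10366048 to 19081031 counted. Scaled by the library total, as CPM, this was 12.5 to 89.7 with a median of 38.75. A library held counts on 33 to 56 members, 3 members (HIST1H2AA, HIST1H2BA and HIST2H4B) had no count in any library, and 11 had under 3 counts in all. The annotation shows 16 members overlapping another gene, HIST1H2BD, HIST1H2AM and HIST1H2BN among them. The strand setting of the counting is not known from the labels, so their reads cannot be told apart from those of the partner. The near-identical pairs HIST2H2AA3 and HIST2H2AA4, HIST2H3A and HIST2H3C, and HIST2H4A and HIST2H4B were close to 0 and are uncertain.

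Levels between genes were compared per length, as mean RPKM over all libraries. HIST1H1C, a linker histone, was highest at 6.09 RPKM, and HIST1H2BK, an H2B gene, followed at 4.05. HIST1H4I, an H4 gene, had 2.45, HIST1H2AC (H2A) 2.32 and HIST3H2A (H2A) 2.26 RPKM. HIST1H2BD (H2B) had 1.70, HIST1H2AM (H2A) 1.53, HIST2H2BE (H2B) 1.51, HIST1H2BH (H2B) 1.11 and HIST2H2AC (H2A) 1.08 RPKM. These 10 genes held 55.6% of all member counts. All 5 members known for polyadenylated forms were among them and held 34.8%. The model of HIST1H2AM lies over that of HIST1H3J on the same strand, so its reads cannot be told apart from those of that gene. HIST1H4C averaged 0.153 CPM, and of the testis genes HIST1H1T had counts in 1 library and HIST3H3 at most 0.132 CPM in any library. In GRCh38, HIST1H1C (ENSG00000187837) lies at chr6:26055787-26056428 on the - strand and HIST1H2BK (ENSG00000197903) at chr6:27146418-27146798 on the - strand. HIST1H4I (ENSG00000276180) lies at chr6:27138588-27139881 on the + strand and HIST1H2AC (ENSG00000180573) at chr6:26124145-26139116 on the + strand. HIST2H2BE (ENSG00000184678) lies at chr1:149884459-149886652 on the - strand.

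The molecule is labelled total RNA and the extract protocol names TruSeq, and the labels do not say whether poly(A) RNA was selected. Beside the histone values, 8 RNAs without a poly(A) tail (RN7SK, RMRP and others) summed to 1.92 to 41.3 CPM per library, and RN7SK alone had 0.966 to 22.6 CPM with a median of 2.68. Of these 8 genes 3 passed the filter on low counts. The 23 members whose model runs on past the stem-loop held 64.1% of member counts, with a median of 0.451 RPKM. The 34 members modelled as coding sequence alone held 26.5%, with a median of 0.379 RPKM. The part of RNA selection in these levels was not tested.

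**Figure D1:**
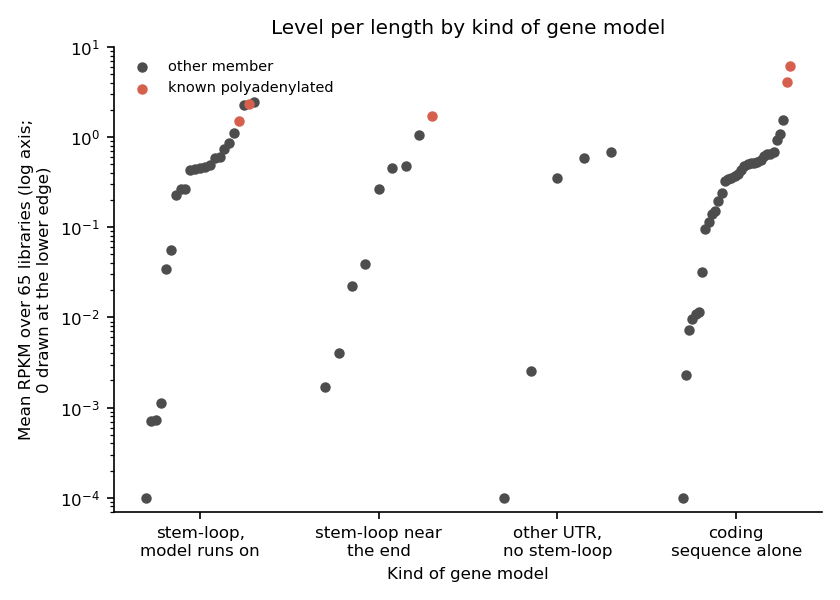
Mean level of each member over all 65 libraries, in RPKM on a log axis, by the kind of annotated gene model. Each point is a gene, red points are the 5 members known for polyadenylated forms, and members at 0 are drawn at the lower edge. HIST1H1C, at 6.09 RPKM, is modelled as coding sequence alone, and the medians of the 23 members with a model past the stem-loop and of the 34 with coding sequence alone are 0.451 and 0.379 RPKM.

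RUNX1 checked the genotype labels of the SOX17-positive cells. In SOX17-positive cells of day 7 it had 38, 36.5, 28.6 and 42.5 CPM in KO and 92, 91.6, 153 and 95.8 CPM in WT libraries (log2 fold change -1.54, adjusted p = 5.14e-03). It was lower in KO at day 12 as well (-2.05, adjusted p = 6.27e-05), and was not called between genotypes on days 0, 2 and 4 or in SOX17-negative cells of day 7. The genotype labels of those groups are therefore not checked by RUNX1. SOX17 checked the gate at day 7, with a mean of 183 CPM in WT SOX17-positive and 47.5 CPM in WT SOX17-negative cells. SPN, which encodes CD43, checked the gate at day 12, with 435 CPM in blood cells and 2.44 CPM in endothelium.

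A gene is called changed at an adjusted p under 0.05, from the quasi-likelihood test of edgeR with the Benjamini-Hochberg adjustment over all genes of the fit. Genes entered a fit only if enough of its libraries reached a minimum count, so a low member could enter through the group in which it was high. Counts of tested members are given beside the share of all genes called. Overlap of libraries between groups was read for sums and named genes only, and was not counted over all genes. In bulk libraries, fewer cells that transcribe a gene and less RNA per cell cannot be told apart.

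In the endoderm protocol the summed histone level was highest at day 2 and lowest at day 7. It was 52.6 to 60.8 CPM at day 0, 77.1 to 88.1 CPM at day 2, 28.9 to 36.9 CPM at day 4 and 25.6 to 29.9 CPM at day 7. Days 0, 2 and 4 did not overlap, while days 4 and 7 did. The mean at day 4 was 33.8 ± 4.27 CPM, against 81.2 ± 6.02 CPM at day 2 (SD, n = 3 each), a ratio of 0.416.

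**Figure D2:**
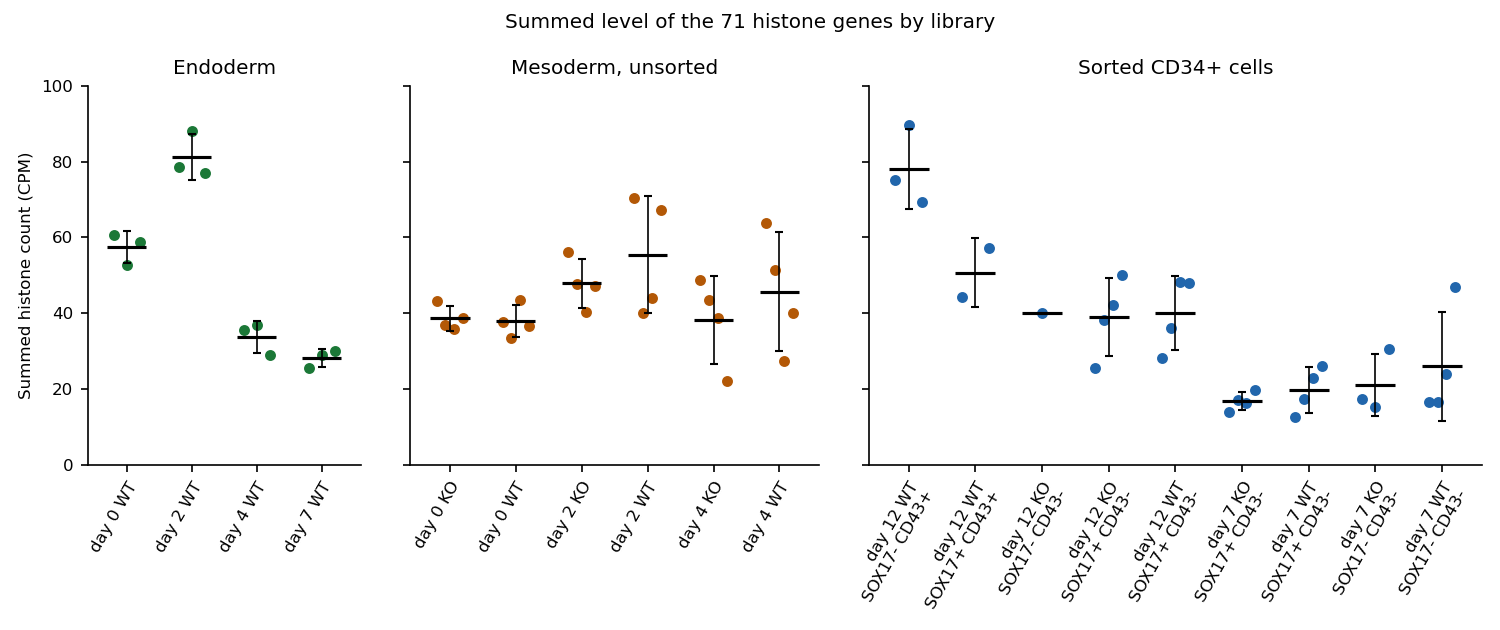
Summed level of the 71 members per library, in CPM, in the endoderm protocol, in unsorted mesoderm cells with KO left of WT, and in the sorted fractions of days 7 and 12. Points are libraries, bars are means and whiskers SD. The endoderm libraries of day 2, at 77.1 to 88.1 CPM, and the blood libraries of day 12, at 69.4 to 89.7 CPM, have the highest means, and the lowest library, at 12.5 CPM, is SOX17-positive WT endothelium of day 7.

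At day 2 of endoderm a linker histone, an H4 gene and an H2B gene rose. The linker histone HIST1H1C had 11.5, 16.1 and 14.1 CPM at day 2, against 4.14, 3.2 and 5.65 CPM at day 0, with no overlap (log2 fold change 1.64 ± 0.24 SE, adjusted p = 4.57e-05). HIST1H4I, an H4 gene, had 8.93, 10.4 and 8.59 CPM at day 2, against 2.36, 2.11 and 2.75 CPM at day 0 (1.90 ± 0.18, adjusted p = 7.27e-07). HIST1H2BK, an H2B gene, had 4.58, 5.70 and 4.26 CPM at day 2, against 1.26, 0.362 and 0.966 CPM at day 0 (2.43 ± 0.31, adjusted p = 1.44e-05). All 3 genes were thus higher in every day 2 library than in every day 0 library, and each of them kept its call under all alternatives run. Of 25 tested members 5 rose and 1 fell, while 28.7% of all tested genes rose and 26.8% fell. Besides these 3, HIST1H2AE (1.25 ± 0.36) and HIST1H2BJ (0.93 ± 0.28) rose and HIST1H4H fell (-0.96 ± 0.39), all 3 named after their values were seen. The median log2 fold change was 0.0991 for the tested members and 0.0226 for all genes. Among the 57 members with a count in these groups, 31 had a higher and 26 a lower mean at day 2. The sum without the 5 members known for polyadenylated forms had a log2 ratio of 0.242, against 0.50 for the full sum.

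Between day 2 and day 4 of endoderm most tested members fell, and the others were not called. HIST1H1C had 3.67, 2.33 and 2.48 CPM at day 4 (-2.17 ± 0.25 against day 2, adjusted p = 9.61e-06), below the values of day 2 given above. HIST1H2AC, an H2A gene, had 1.58, 2.59 and 0.909 CPM at day 4, against 8.76, 8.94 and 6.17 CPM at day 2 (-2.12 ± 0.33, adjusted p = 0.00016). The H2B gene HIST1H2BH had 0.949, 1.93 and 1.82 CPM at day 4, against 4.94, 4.76 and 4.14 CPM at day 2 (-1.43 ± 0.25, adjusted p = 0.000397). None of these groups overlapped. HIST1H2AM changed by -2.04 ± 0.36, HIST2H2AC by -2.30 and HIST1H3G, an H3 gene named after its values were seen, by -2.36 ± 0.30 (adjusted p = 2.34e-05).

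HIST1H4I and HIST1H2BK, which had risen at day 2, were not called at this step. HIST1H4I had 7.72, 7.11 and 6.67 CPM at day 4 (-0.26 ± 0.16, adjusted p = 0.22), and at day 7 its values were 5.61, 7.55 and 6.39 CPM. HIST1H2BK had 2.85, 3.59 and 4.12 CPM at day 4 (-0.34 ± 0.26, adjusted p = 0.315), and at day 7 its values were 3.85, 3.77 and 3.70 CPM. Both stayed above every day 0 library on days 4 and 7. HIST2H2BE had 3.61, 2.53 and 2.00 CPM at day 4, against 3.82, 4.17 and 3.88 CPM at day 2 (-0.42 ± 0.23, adjusted p = 0.153). In all, 17 of 25 tested members fell and 0 rose, while 20.2% of all tested genes fell and 22.2% rose (42.4% in all). The median log2 fold change was -1.33 for the tested members and 0.0116 for all genes. Of the 10 tested members that reached the filter level of 0.605 CPM in every library of both days, 5 fell. Of the 55 members with a count 50 had a lower mean at day 4. Leaving out 1 library gave 12 to 16 falling members, with 12 without day 4 replicate 3. That library had the lowest sum of day 4, at 28.9 CPM. The library number in its title lies apart from those of the other endoderm libraries. HIST3H2A and HIST1H2BD lost their call in 4 and 3 of these settings, with adjusted p up to 0.114 and 0.1.

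Genes of S phase fell at the same step, as 15 of 15 did, with a median log2 fold change of -1.06, and so did 8 of 8 genes of mitosis. The summed S phase level was 1180 ± 172 CPM at day 4 and 2540 ± 114 CPM at day 2. At day 2 it had already been below day 0, at 3580 ± 128 CPM, while histone RNA was higher. From day 0 to day 2, 9 of 15 S phase genes fell and 1 rose, beside 26.8% and 28.7% of all tested genes. The summed mitosis level went the other way, at 2641 to 2834.8 CPM at day 2 and 2044.5 to 2163.9 CPM at day 0. Of the genes that process histone 3′ ends 3 of 10 fell from day 2 to day 4, beside 20.2% of all tested genes. SLBP itself was 47 CPM at day 4 and 54.3 CPM at day 2 (-0.0856, not called). NPAT changed by -0.36 ± 0.13 (adjusted p = 0.0389), at 25.1 CPM at day 4 and 35.1 CPM at day 2. Of histone chaperones 7 of 10 fell, among them CHAF1A at -1.06, a subunit of the assembly factor that follows the replication fork. Pluripotency markers were lower at day 4, with a sum of 2.92 to 16.5 CPM against 99.1 to 161 CPM at day 2, and their part in the histone result was not tested. Between day 4 and day 7, 2 of 25 tested members fell and 0 rose (10.1% and 11.2% of all genes). HIST1H2BH was one, at 0.534, 0.734 and 0.626 CPM at day 7 (-1.19 ± 0.31, adjusted p = 0.014), and lost its call without day 4 replicate 2 or day 7 replicate 1 (adjusted p = 0.0539 and 0.061). HIST1H3E, named after its values were seen, was the other, at -1.57 ± 0.38 (adjusted p = 0.0086).

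**Figure D3:**
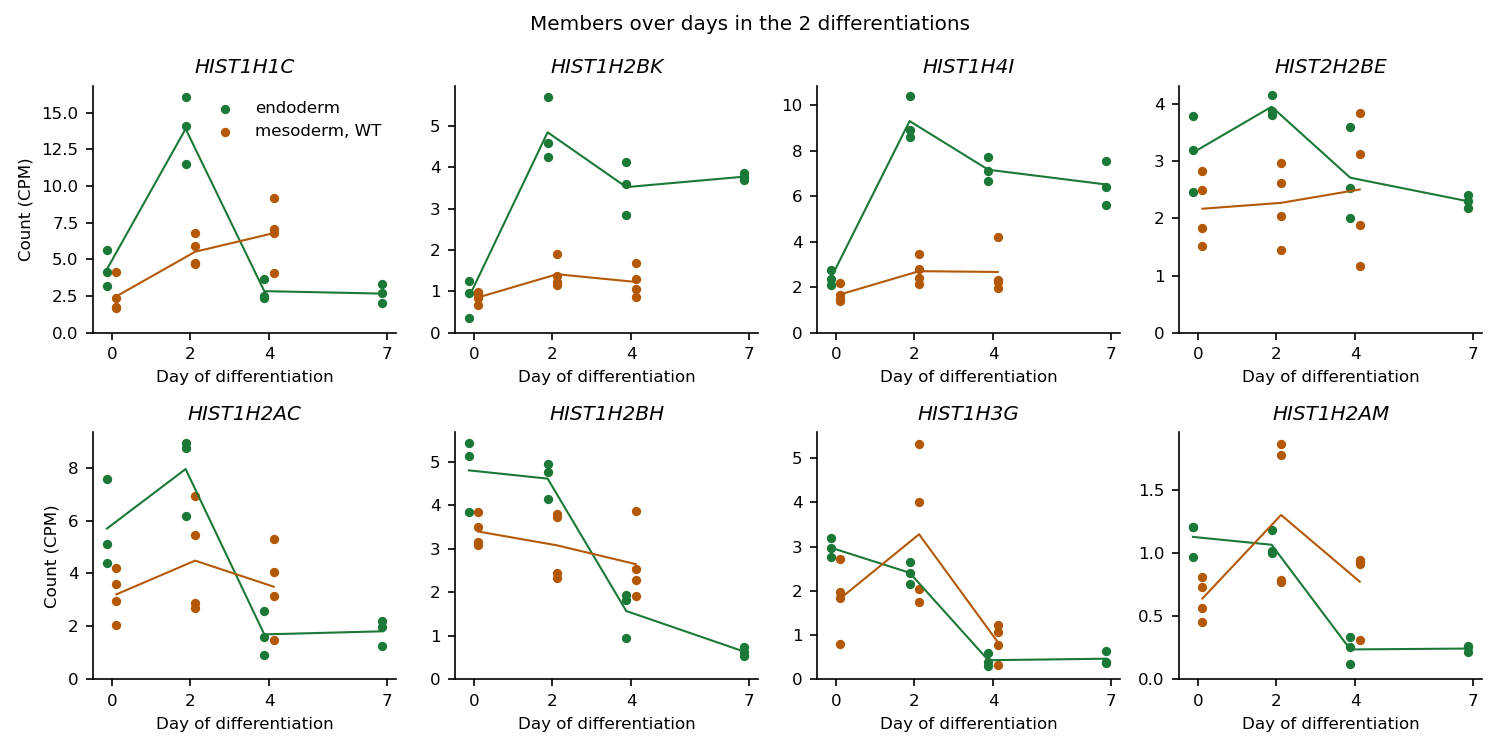
Level of 8 members, in CPM, against day, in the endoderm protocol (green) and in WT cells of the mesoderm protocol (orange). Points are libraries and lines join the means. In endoderm HIST1H1C peaks at day 2 at a mean of 13.9 CPM, whereas HIST1H4I and HIST1H2BK stay above their day 0 libraries up to day 7.

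In the mesoderm protocol the summed levels of successive days overlapped in both genotypes. In WT the sum was 37.9 ± 4.26 CPM at day 0, 55.4 ± 15.5 CPM at day 2 and 45.7 ± 15.6 CPM at day 4 (SD, n = 4 each). In KO it was 38.7 ± 3.30, 47.9 ± 6.44 and 38.3 ± 11.6 CPM on these days. HIST1H1C had 6.77, 4.73, 4.66 and 5.89 CPM in WT at day 2 and 4.12, 1.67, 1.76 and 2.35 CPM at day 0, so the days did not overlap (1.10 ± 0.35, adjusted p = 0.0133). In KO it averaged 5.20 CPM at day 2 and 2.48 CPM at day 0 (1.02 ± 0.35, adjusted p = 0.0209), and the KO call was lost without day 0 replicate 2 or 3 (adjusted p = 0.0749 and 0.0549). The H3 gene HIST1H3G, named after its values were seen, had 1.22, 1.06, 0.308 and 0.771 CPM in WT at day 4 and 4.01, 2.03, 1.74 and 5.33 CPM at day 2 (-1.94 ± 0.44, adjusted p = 0.00094). In KO it averaged 0.499 CPM at day 4 and 1.91 CPM at day 2 (-1.86 ± 0.48, adjusted p = 0.00254). HIST1H1C and HIST1H3G kept these WT calls under every alternative run, and HIST1H3G did so in KO too.

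From day 0 to day 2, 5 of 27 tested members rose in WT and 2 in KO, and 0 fell in either, while in WT 22.2% of all genes rose and 22.9% fell (45.1% in all), and in KO 21.6% rose and 21.7% fell. The other members that rose in WT were HIST1H2AM, HIST1H2BN, HIST1H3H and HIST1H4E, by 0.618 to 0.991, and HIST1H2BN rose in KO, by 0.675. The last 3 of these 4 were named after their values were seen. The WT count was 1 without day 2 replicate 1 or day 0 replicate 2, 2 without day 2 replicate 4 or day 0 replicate 4, and 3 without day 0 replicate 1. The KO count was 0 without day 0 replicate 3 and 1 without day 0 replicate 2 or day 2 replicate 1 or 2. From day 2 to day 4, 1 of 27 fell in WT and 2 in KO, and 0 rose, while 25.5% of all genes fell and 25.9% rose in WT, and 24.5% fell and 26% rose in KO. The WT count was 2 without day 4 replicate 1 or 2 or day 2 replicate 3 or 4, and the KO count was 1 without day 2 replicate 1 or day 4 replicate 4. Median log2 fold changes of the tested members were 0.655 and -0.26 in WT and 0.287 and -0.175 in KO at the 2 steps. For all genes the WT median of the earlier step was -0.00213. WT replicate 3 of day 4 and KO replicate 4 of day 4 were low, with sums of 27.3 and 22 CPM. The next lowest of their groups had 40.2 and 38.8 CPM. Without both, a choice made after seeing the data, 2 members fell in WT. The second KO gene, HIST1H2BF, then had adjusted p = 0.0517. Its call was also lost without day 2 replicate 1 or day 4 replicate 3 or 4.

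The change since day 0 differed between the protocols for several members, tested as an interaction over the 21 WT libraries. The day 0 sums already differed without overlap, at 57.4 ± 4.26 CPM in endoderm and 37.9 ± 4.26 CPM in mesoderm (SD, n = 3 and 4). At day 4 the sums overlapped, at 28.9 to 36.9 CPM and 27.3 to 63.9 CPM. The part of the day 0 difference in the interactions was not tested. The protocols also carry separate series of library numbers in the titles, so protocol and series cannot be told apart. Up to day 2, HIST1H2BK rose by 1.75 ± 0.46 more in endoderm than in mesoderm (adjusted p = 0.00766) and HIST1H4I by 1.26 ± 0.35 more (adjusted p = 0.00996). These 2 of 28 tested members were higher and 0 lower, while 15.5% of all genes were higher and 13.9% lower. Up to day 4 the same 2 genes were higher in endoderm, by 1.60 ± 0.46 and 1.00 ± 0.35, and 11 were lower, while 20.5% of all genes were higher and 19.9% lower. HIST1H1C differed by -1.94 ± 0.46 (adjusted p = 0.00212), HIST1H2BD by -2.69 ± 0.75, HIST1H2AM by -2.41 ± 0.62 and HIST2H2AC by -2.34 ± 0.52. HIST1H4I was not called at day 4 in 5 settings that left out 1 library (mesoderm day 0 replicate 3 or day 4 replicate 4, endoderm day 0 replicate 1 or 2 or day 4 replicate 1), with adjusted p up to 0.0683. HIST1H2AC lost its call without endoderm day 0 replicate 1 or day 4 replicate 3 (adjusted p = 0.0618 and 0.0622), and HIST1H2BH without endoderm day 4 replicate 1 (0.0683). Of 15 S phase genes 13 were lower in this interaction and 0 higher.

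Sorted WT SOX17-positive endothelium of day 7 had less histone RNA than unsorted WT cells of day 4. The sum was 12.5, 17.5, 22.9 and 26.2 CPM at day 7, against 63.9, 51.3, 27.3 and 40.2 CPM at day 4, without overlap. HIST1H1C had 0.577, 1.30, 1.62 and 1.96 CPM at day 7, against 9.21, 7.07, 4.06 and 6.80 CPM at day 4, also without overlap (-2.36 ± 0.36, adjusted p = 0.000258). HIST1H2BH had 0.833, 1.05, 0.916 and 0.856 CPM at day 7, against 2.27, 2.54, 1.91 and 3.86 CPM at day 4 (-1.57 ± 0.27, adjusted p = 0.000578). HIST1H2AC fell, with 0.577, 0.805, 1.78 and 1.83 CPM at day 7, against 5.30, 4.07, 1.48 and 3.15 CPM at day 4 (-1.53 ± 0.46, adjusted p = 0.0136), and its days overlapped through day 4 replicate 3. HIST1H2BD also fell (-2.13 ± 0.62), while HIST2H2BE was not called (-0.35). Of 17 tested members 10 fell and 0 rose, while 31.1% of all genes fell and 31.7% rose. Of the 5 members that reached the filter level of 0.613 CPM in every library of both days, 3 fell. The median log2 fold change was -1.23 for the tested members and -0.0248 for all genes. Of the 60 members with a count 51 had a lower mean at day 7. The count of falling members was 16 without day 4 replicate 3, the low library, and lay between 7 and 16 over all left-out libraries. HIST1H4I was called (-0.94 ± 0.31, adjusted p = 0.0225), but not without day 4 replicate 1 or day 7 replicate 1 or 2.

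S phase genes fell as well at this step, 15 of 15, with 8 of 8 mitosis genes and 7 of 10 genes of histone 3′ processing. SLBP was 39.3 CPM at day 7 and 72.4 CPM at day 4 (-0.93 ± 0.12, adjusted p = 7.42e-05). Markers of mesenchyme summed to 167 to 406 CPM at day 7 and 746 to 5420 CPM at day 4, with 4 of 5 lower. Markers of endothelium summed to 2100 to 2550 CPM at day 7 and 123 to 236 CPM at day 4, with 3 of 3 higher. Their part in the result was not tested. The libraries of day 7 and day 4 also carry separate series of library numbers in the titles. Day, sorting and series therefore cannot be told apart in this comparison.

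Between day 7 and day 12 the SOX17+CD34+CD43- endothelium gained histone RNA while its S phase genes did not rise. In WT the sum was 28.1, 36, 48.2 and 47.9 CPM at day 12 against the 12.5 to 26.2 CPM of day 7, so the days did not overlap and the means differed 2.03-fold. In KO it was 25.4, 38.2, 42.1 and 50.0 CPM at day 12, against 14, 17, 16.2 and 19.8 CPM at day 7, again without overlap, and 2.33-fold. The part on the 5 members known for polyadenylated forms was 19.3 ± 5.71 CPM at day 12 and 5.80 ± 2.87 CPM at day 7 in WT, and 17.2 ± 6.50 and 4.71 ± 1.10 CPM in KO. The rest was 20.8 ± 4.08 CPM at day 12 and 14 ± 3.38 CPM at day 7 in WT, and 21.8 ± 4.66 and 12.0 ± 1.37 CPM in KO (SD, n = 4 each). The 5 genes held 47.7 ± 2.81% of histone counts in WT endothelium of day 12, against 28.2 ± 6% at day 7.

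HIST2H2BE led in WT. It had 5.51, 6.72, 11.9 and 10.3 CPM at day 12, against 1.22, 1.49, 1.72 and 3.79 CPM at day 7, with every day 12 library above every day 7 library (2.11 ± 0.39, adjusted p = 0.000316). HIST1H4I had 2.12, 3.23, 4.46 and 3.92 CPM at day 12, against 0.961, 1.36, 1.67 and 1.77 CPM at day 7 (1.28 ± 0.32, adjusted p = 0.00582). HIST3H2A had 2.17, 3.43, 5.59 and 3.31 CPM at day 12, against 0.769, 0.866, 1.56 and 1.71 CPM at day 7 (1.59 ± 0.39, adjusted p = 0.00468). These 3 calls held under all alternatives run. HIST1H2AC had 3.12, 4.2, 6.04 and 6.63 CPM at day 12, against 0.577, 0.805, 1.78 and 1.83 CPM at day 7 (2.02 ± 0.64, adjusted p = 0.0264). None of these 4 genes overlapped between the days. HIST1H2BD, HIST1H2BK and, named after its values were seen, HIST1H3E rose too, by 1.87 ± 0.60, 1.33 ± 0.42 and 1.62 ± 0.47. HIST1H1C, at 2.01, 2.84, 2.14 and 1.83 CPM at day 12 against the 0.577 to 1.96 CPM of day 7, was not called in WT (0.72 ± 0.40, adjusted p = 0.236), and its days overlapped.

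In KO the 5 members known for polyadenylated forms all rose. HIST1H2AC had 1.84, 4.26, 4.35 and 8.01 CPM at day 12, against 0.251, 0.475, 0.670 and 1.44 CPM at day 7 (2.69 ± 0.69, adjusted p = 0.0083). HIST2H2BE had 4.19, 6.79, 5.25 and 9.60 CPM at day 12, against 2.07, 1.66, 2.75 and 2.36 CPM at day 7 (1.57 ± 0.39, adjusted p = 0.00677). HIST1H1C had 2.16, 3.40, 3.02 and 2.20 CPM at day 12, against 0.501, 1.19, 0.670 and 0.978 CPM at day 7 (1.69 ± 0.43, adjusted p = 0.00707). These 3 genes did not overlap between the days and kept their call under all alternatives run. HIST1H2AG, HIST1H2BE, HIST1H2BN, HIST1H4E and HIST2H2AC, which are not listed as known for polyadenylated forms, rose too. All but HIST2H2AC were named after their values were seen. DESeq2 did not call HIST1H2BE, HIST1H4E or HIST2H2AC (adjusted p = 0.0728, 0.0629 and 0.0762). HIST1H4I, at 2.54, 2.42, 2.92 and 3.61 CPM at day 12, against 1.25, 1.60, 1.49 and 2.01 CPM at day 7, was not called in KO (0.86, adjusted p = 0.0816), nor was HIST3H2A (0.78, adjusted p = 0.226). Whether the change over these days differs between KO and WT was not tested.

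**Figure D4:**
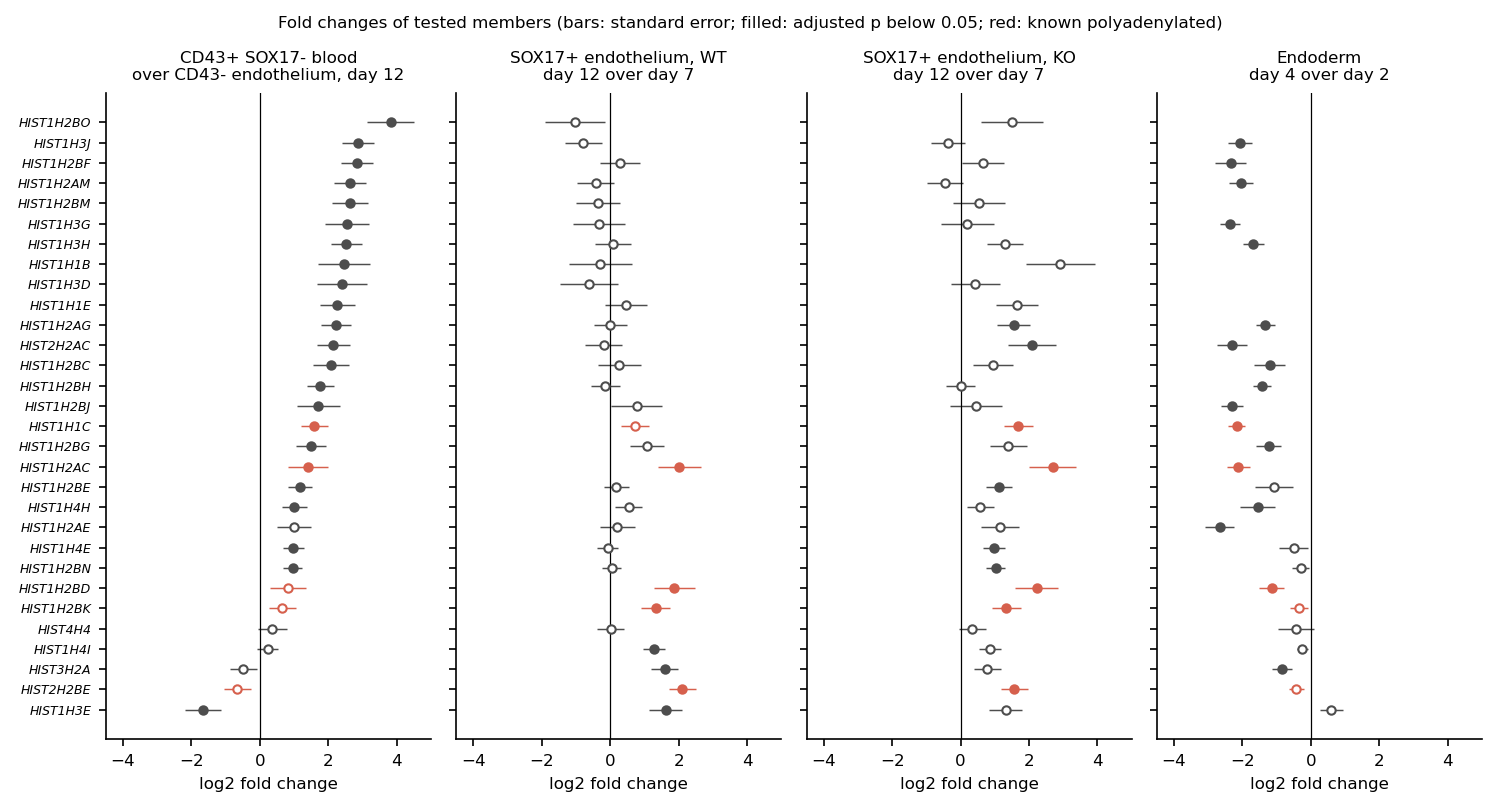
Log2 fold change of each tested member in 4 comparisons, with blood over endothelium of day 12, SOX17-positive endothelium of day 12 over day 7 in WT and in KO, and endoderm of day 4 over day 2. Bars are standard errors, filled points have an adjusted p under 0.05 and red marks the 5 members known for polyadenylated forms. In WT endothelium HIST2H2BE is highest at 2.11, and in endoderm HIST1H1C lies at -2.17 while HIST1H4I is near 0 at -0.26.

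Of 30 tested members 7 rose in WT and 10 in KO from day 7 to day 12, and 0 fell in either. Of all genes 8.57% rose and 9.23% fell in WT, and 6% rose and 7.29% fell in KO. The median log2 fold change of the tested members was 0.196 in WT and 1.08 in KO, and that of all genes -0.00582 and -0.00658. Of the 5 members that reached the filter level of 0.623 CPM in every WT library of day 7, 3 rose. In KO 3 members did so, and 1 of them rose. Over members with any count, 32 of 60 in WT and 47 of 57 in KO had a higher mean at day 12. The WT count was 3 without replicate 1 or 2 of day 7 or replicate 3 or 4 of day 12. The calls of HIST1H2AC, HIST1H2BD, HIST1H2BK and HIST1H3E were the ones lost, with adjusted p up to 0.0864, 0.0948, 0.0979 and 0.0681. HIST1H2BD and HIST1H2BK were not called without replicate 3 of day 7 either (0.0713 and 0.0529). The KO count was 4 without replicate 1 of day 7, 5 without its replicate 3, and 6 without its replicate 4 or replicate 3 of day 12. HIST1H2BD in KO lost its call without replicate 1 of day 7 or replicate 4 of day 12 (0.0698 and 0.067), and HIST1H2BK had adjusted p up to 0.186 over the left-out libraries.

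Cell cycle genes did not rise with these members. In WT 9 of 15 S phase genes and 6 of 8 mitosis genes fell and 0 rose. In KO edgeR called 0 of both lists, 0 of them had an unadjusted p under 0.05, and the median of the S phase genes was -0.0136. The summed S phase level was 820 ± 169 CPM at day 12 and 1180 ± 204 CPM at day 7 in WT, and 949 ± 148 and 959 ± 206 CPM in KO. RRM2, which makes deoxynucleotides, changed by -0.91 ± 0.28 in WT, at 22.4 CPM at day 12 and 43.3 CPM at day 7. SLBP was not called in WT (-0.38, 29.3 CPM at day 12 and 39.3 CPM at day 7) or in KO (-0.24). H1F0, the linker histone of resting cells, which lies outside the clusters, was 296 CPM at day 12 and 354 CPM at day 7 in WT and was not called. Markers of mesenchyme rose in 3 of 5 genes in WT and 2 of 5 in KO. Their sums were 212 to 352 CPM at day 12 and 167 to 406 CPM at day 7 in WT, and 220 to 381 CPM and 139 to 323 CPM in KO. Blood markers summed to 2.84 to 5.70 CPM at day 12 and 2.48 to 3.65 CPM at day 7 in WT. The 8 RNAs without a poly(A) tail summed to 6.04, 6.27, 41.3 and 5.26 CPM at day 12, against 2.31 to 5.77 CPM at day 7 in KO. RN7SK had 4.19, 3.63, 22.6 and 3.36 CPM at day 12, against 1.84 to 2.95 CPM at day 7. Replicate 3 of day 12 stood apart, and of 3 tested genes edgeR called 2 higher with it and 0 without it. In WT the 8 summed to 3.16 to 7.96 CPM at day 12, against 2.51 to 7.74 CPM at day 7, with 0 of 3 called by edgeR and 0 at an unadjusted p under 0.05. The part of these in the histone result was not tested.

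Blood cells of day 12 held the most histone RNA of the sorted groups. SOX17-CD34+CD43+ blood cells had sums of 75.2, 89.7 and 69.4 CPM, all above the 28.1 to 48.2 CPM of WT SOX17+CD34+CD43- endothelium of the same day, and the means differed 1.95-fold. HIST1H2AM had 1.22, 1.40 and 0.951 CPM in blood cells and 0.223, 0.129, 0.113 and 0.270 CPM in endothelium, without overlap (2.64 ± 0.47, adjusted p = 1.68e-05). HIST1H2BH had 2.94, 2.38 and 3.03 CPM in blood cells and 0.835, 0.905, 0.734 and 0.744 CPM in endothelium, without overlap (1.77 ± 0.41, adjusted p = 0.0004). HIST2H2AC had 1.22, 1.10 and 1.01 CPM in blood cells and 0.278, 0.0647, 0.395 and 0.203 CPM in endothelium (2.15 ± 0.48, adjusted p = 0.000331). HIST1H3H, an H3 gene named after its values were seen, had 2.88, 3.41 and 2.91 CPM in blood cells and 0.668, 0.453, 0.113 and 0.879 CPM in endothelium (2.53 ± 0.46, adjusted p = 2.68e-05). All 4 genes were thus higher in every blood library.

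Of the 5 members known for polyadenylated forms 2 rose in blood cells. HIST1H1C, at 6.66, 7.80 and 5.76 CPM in blood cells and 2.01, 2.84, 2.14 and 1.83 CPM in endothelium, rose without overlap (1.59 ± 0.39, adjusted p = 0.000769). HIST1H2AC had 12.4, 20.6 and 7.13 CPM in blood cells against the 3.12 to 6.63 CPM of endothelium, without overlap (1.40 ± 0.58, adjusted p = 0.0372). DESeq2 did not call HIST1H2AC (adjusted p = 0.0863), nor did edgeR without blood replicate 1 or 2 (0.0536 and 0.209) or endothelium replicate 1 or 2 (0.099 and 0.0776). HIST2H2BE had 5.06, 7.13 and 4.4 CPM in blood cells, within or below its 5.51 to 11.9 CPM in endothelium (-0.66 ± 0.39, adjusted p = 0.145). HIST1H2BD (0.82), HIST1H2BK (0.66), HIST1H4I (0.22) and HIST3H2A (-0.48) were not called. HIST1H3E was the 1 member that fell, with 1.41, 1.16 and 0.416 CPM in blood cells and 1.11, 2.97, 4.23 and 4.06 CPM in endothelium (-1.66 ± 0.53, adjusted p = 0.00733). The groups overlapped there, and without blood replicate 3 its adjusted p was 0.0508.

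Of 30 tested members 22 rose and 1 fell in blood cells, while 32.3% of all genes rose and 33.9% fell. The median log2 fold change was 1.65 for these members and -0.0227 for all genes. Of the 10 members that reached the filter level of 0.623 CPM in every endothelium library, 4 rose and 1 fell. Of the 59 members with a count 50 had a higher mean in blood cells. The count of changed members lay between 19 and 24 over the left-out libraries. Without a filter on low counts 37 members changed, 36 of them upwards.

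The cell cycle list rose with the histones between these fractions. All 15 S phase genes and all 8 mitosis genes rose, with medians of 2.29 and 2.41, and the summed S phase level was 2984 to 3907 CPM in blood cells and 619 to 981 CPM in endothelium. RRM2 rose by 3.10 ± 0.30 and PCNA, the replication clamp, by 2.21 ± 0.20. SLBP was 106 CPM in blood cells and 29.3 CPM in endothelium (1.85 ± 0.18, adjusted p = 1.08e-09), and of the genes of histone 3′ processing 8 of 10 rose. Of histone chaperones 9 of 10 rose, CHAF1A by 2.01. NPAT was not called (0.25). Among replication-independent histones 7 of 11 rose and 3 fell, H2AFZ by 1.36 and H1F0 by -0.65. Blood markers summed to 587 to 737 CPM in blood cells and 2.84 to 5.70 CPM in endothelium, endothelium markers to 87.2 to 163 CPM and 3260 to 3940 CPM, and mesenchyme markers to 17.7 to 120 CPM and 212 to 352 CPM. The mitochondrial share of counts was 8.37 to 8.85% in blood cells and 4.25 to 5.24% in endothelium. Their part in the histone result was not tested.

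**Figure D5:**
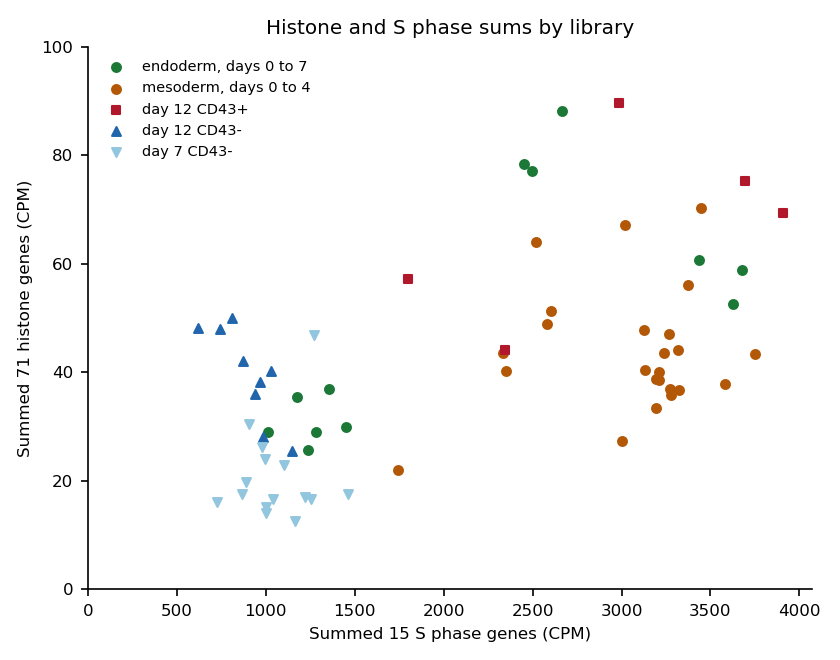
Summed level of the 71 histone members (vertical) against the summed level of 15 S phase genes (horizontal) for each of the 65 libraries, both in CPM, coloured by group. Blood cells of day 12 lie at the upper right with 69.4 to 89.7 CPM of histone and 2984 to 3907 CPM of S phase genes, while WT endothelium of day 12 reaches 28.1 to 48.2 CPM of histone at only 619 to 981 CPM of S phase genes.

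SOX17+CD34+CD43+ cells lay between endothelium and blood cells. Their 2 libraries had histone sums of 44.2 and 57.2 CPM, which overlapped with the 28.1 to 48.2 CPM of endothelium. They lay below the 69.4 to 89.7 CPM of blood cells. The linker histone HIST1H1E, named after its values were seen, had 2.26 and 0.902 CPM in these cells and 0.390, 0.647, 0.0564 and 0.135 CPM in endothelium (2.31 ± 0.56, adjusted p = 0.0029). Of 30 tested members 4 rose and 0 fell against endothelium (15.5% and 10.9% of all genes), none of them known for polyadenylated forms. Of the 10 members that reached the filter's level of 0.623 CPM in every endothelium library, 0 were called. Of the 58 with a count 46 had a higher mean. HIST1H1B, HIST1H2BO and HIST1H3G were the others called, at 2.20 to 2.66, and were named after their values were seen. Without replicate 1 of these cells HIST1H1E had adjusted p = 0.207 and the count was 2. Leaving out endothelium replicate 2 or 4 also gave 2, and leaving out replicate 3 gave 1. All 15 S phase genes rose. These 2 libraries held endothelium markers at 1640 to 1960 CPM beside blood markers at 318 to 406 CPM, and the part of such a mixture was not tested.

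The histone sums of SOX17-negative blood cells, 69.4 to 89.7 CPM, lay above the 44.2 and 57.2 CPM of SOX17-positive CD43+ cells. Of 30 tested members 5 were higher and 0 lower (14.6% and 22.9% of all genes), so the share higher was near that of all genes. Of the 17 members that reached the filter's level in every SOX17-positive library 1 was higher. Of the 56 with a count 47 had a higher mean in SOX17-negative cells. HIST1H2BG, named after its values were seen, had 2.50, 2.38 and 2.62 CPM in SOX17-negative and 0.479 and 0.902 CPM in SOX17-positive CD43+ cells (1.91 ± 0.59, adjusted p = 0.0118), without overlap. The others, HIST1H2AM, HIST1H2BF, HIST1H3H and HIST1H3J, were higher by 1.36 to 1.52, and all but HIST1H2AM were named after their values were seen. For HIST1H2BG the adjusted p was 0.147 without SOX17-positive replicate 1. The count was 1 without that library, 2 without SOX17-positive replicate 2 and 3 without any of the 3 SOX17-negative libraries. With 1 library left in a group, that library is assumed to vary like those of the other groups. Of 15 S phase genes 14 were higher.

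Against WT SOX17-negative CD34+CD43- cells of day 7, blood cells of day 12 had 3.00 times the histone sum, and 27 of 30 tested members rose and 0 fell (30% and 33% of all genes). Of the 7 members that reached the filter level in every day 7 library, 6 rose. Of the 56 with a count 53 had a higher mean in blood cells. All 5 members known for polyadenylated forms rose. HIST1H2AC had 12.4, 20.6 and 7.13 CPM in blood cells and 0.669, 1.08, 1.72 and 7.89 CPM at day 7, overlapping through day 7 replicate 4 (2.23 ± 0.61, adjusted p = 0.00238). HIST2H2BE rose by 1.34 ± 0.42. HIST4H4, the H4 gene outside the clusters, had 0.768, 0.853 and 1.25 CPM in blood cells and 0.304, 0.191, 0.429 and 0.261 CPM at day 7, without overlap (1.70 ± 0.48, adjusted p = 0.0032). HIST1H2BM, named after its values were seen, had 43 counts in the 3 blood libraries and 1 count in the 4 of day 7, so no fold is given. WT SOX17-negative replicate 4 of day 7 stood apart with a sum of 47 CPM, against 16.5 to 24 CPM in the other 3, and without it 28 members rose. Endothelium markers summed to 87.2 to 163 CPM in blood cells and 1700 to 2310 CPM at day 7, and all 15 S phase genes rose. Their part in the histone result was not tested.

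The main test called no member between KO and WT or between the SOX17 fractions of day 7. In KO against WT, 0 of 27 tested members were called on days 0, 2 and 4 (0% of all genes on each day), and 0 of 30 in SOX17-positive cells of day 7 (0.0566% of all genes, 0.0087% higher and 0.0479% lower), SOX17-negative cells of day 7 (0.0087%, 0.00435% higher and 0.00435% lower) and endothelium of day 12 (0.187%, 0.00435% higher and 0.183% lower). DESeq2 and limma-trend also called 0 in each. An unadjusted p under 0.05 was found by edgeR for 0, 1 and 0 members on days 0, 2 and 4, and for 1, 0 and 2 in these sorted groups. Over all genes such a p was found for 146, 973 and 987 of 21612 on these days. In the sorted groups it was found for 860, 1094 and 707 of 22978. The ratio of summed means of KO over WT was 1.02, 0.863 and 0.838 on days 0, 2 and 4. It was 0.847 and 0.808 in SOX17-positive and SOX17-negative cells of day 7 and 0.971 in endothelium of day 12. The libraries of the 2 genotypes overlapped each time. HIST2H2BE, for example, had 4.19 to 9.60 CPM in KO and 5.51 to 11.9 CPM in WT endothelium of day 12. Between SOX17-positive and SOX17-negative cells of day 7, 0 of 30 tested members were called in WT (1.6% of all genes) and 0 in KO (0.67%). The unadjusted p of edgeR was under 0.05 for 4 and 3 of them, and for 2619 and 1832 of all 22978 genes. DESeq2 and limma-trend called 0 in both. With a block for the replicate number, or for runs of consecutive library numbers in the titles, edgeR called 1 member in WT, HIST4H4, which was higher in SOX17-positive cells. A p that misses the threshold does not show that the levels are equal. RUNX1 did not check the genotype labels on days 0, 2 and 4 or in SOX17-negative cells of day 7.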

How the data were processed

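RNA-seq was made from cells labelled total RNA with a TruSeq kit, per the labels' protocols. The authors trimmed reads with cutadapt 1.18, used the GRCh38 build, and counted fragments per gene with featureCounts in R 3.2.2, per the submitters' processing notes. Which aligner, annotation and strand setting stood behind the counts is not stated in the labels. The deposited counts are raw fragment counts per Ensembl gene, 10366048 to 19081031 per library. The deposited log2 RPKM values, made by the authors, were turned back to RPKM to compare genes per length and were used in 1 alternative test.

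Symbols came from GENCODE 29, which named 58039 of the 58302 identifiers. Members and gene lists were chosen with earlier results of these data known. Genes were tested in 5 fits over 24 comparisons with the quasi-likelihood test of edgeR 4.0.16 in R 4.3.3, with TMM scaling, a filter on low counts (filterByExpr, minimum 10, total 15) and the Benjamini-Hochberg adjustment over all genes of a fit, and calls were made at 0.05. Fold changes are log2 with standard errors from the F statistic. The fits took 24 unsorted mesoderm, 12 endoderm and 28 sorted libraries, 8 for day 7 against day 4, and 21 WT libraries for the interactions. Alternatives were DESeq2 1.42.0 and its size factors, limma-trend 3.58.1, no filter, blocks of replicate number and of runs of consecutive library numbers in the titles, each library left out in turn and, added after seeing the data, 2 low day 4 libraries left out. Other work used Python 3.11.15. The edgeR test was checked on simulated counts, with changes placed only in genes averaging over 1 CPM. Over all libraries 13 of 71 members averaged at least 1 CPM, so the check does not cover the lower members. In 85 pairs no replicates agreed within counting noise.

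Genes named are the 10 highest by mean RPKM, up to 4 called members per direction and comparison with the largest change and a mean of at least 5 CPM in the higher group, the 5 known for polyadenylated forms, HIST1H1T, HIST1H2AA, HIST1H2BA, HIST3H3, HIST4H4 and the list and check genes. Others are marked as named after their values were seen. Samples with the same replicate number deviated together in 3 comparisons, with correlations of 0.232 to 0.774 for KO against WT on day 0, 0.132 to 0.219 for WT endothelium of day 12 against day 7, and 0.189 to 0.404 for KO against WT in SOX17-positive cells of day 7. Samples of the same run of library numbers deviated together in KO SOX17-positive against SOX17-negative cells of day 7 (0.135 to 0.318) and in KO against WT SOX17-negative cells of day 7 (0.147 to 0.185), where that block left the count at 0. The pairing comes from the labels' numbers. RMRP, which has 2 identifiers with the same counts, entered its list once.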

Additional observations from a re-analysis of the deposited data

Results flagged for a closer look

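Of 187 combinations of a measure and a group of 4 libraries, 10 held a library that stood far from the others of its group, and chance alone gives about 1 in 20. The RNAs without a poly(A) tail summed to 10.2 CPM in KO mesoderm day 2 replicate 2 and to 41.3 CPM in KO endothelium day 12 replicate 3. In SOX17-negative WT cells of day 7, replicate 4 stood high for HIST1H2AC (7.89 CPM), HIST1H2BD (3.2 CPM) and HIST1H2BH (4.04 CPM). In WT mesoderm of day 4, HIST1H4I stood high in replicate 1 (4.2 CPM), HIST2H2AC high in replicate 4 (0.771 CPM) and HIST1H2AM low in replicate 3 (0.308 CPM). In KO mesoderm, HIST1H2AC stood high in day 0 replicate 1 (5.14 CPM) and HIST1H2BD in day 2 replicate 1 (1.45 CPM).

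The log2 change since day 0 differed between endoderm and mesoderm for 2 members at day 2, HIST1H2BK (1.75) and HIST1H4I (1.26), by the interaction test of edgeR. At day 4 it was higher in endoderm for HIST1H2BK (1.60) and HIST1H4I (1.00). It was lower in endoderm for HIST1H1C (-1.94), HIST1H2AC (-1.80), HIST1H2AG (-1.71), HIST1H2AM (-2.41), HIST1H2BD (-2.69), HIST1H2BF (-3.20), HIST1H2BH (-1.15), HIST1H3H (-2.19), HIST1H3J (-2.38), HIST1H4H (-2.49) and HIST2H2AC (-2.34). The summed histone levels of day 0 already differed between the protocols, as given above.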

How the results depend on the processing

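Of 136 single calls, 83 were called under every alternative run and none reversed. DESeq2 and the absence of a filter each lost 16, and limma-trend lost 4. The replicate block lost 8 of 121, and with it as pairing the count was 7 for WT endothelium of day 12 against day 7 as without it; among the comparisons whose numbers pair the samples it changed no count. Other counts of called members moved by over 1.5 times in few settings, and the cause was not tested. WT mesoderm day 2 against day 0 gave 2 with no filter and 2 with DESeq2 (5 in the report), and KO gave 1 with DESeq2. WT day 4 against day 2 gave 3 with no filter, 3 with limma-trend, and 2 with the replicate block or without the low day 4 libraries. WT SOX17-positive against SOX17-negative cells of day 7 gave 1 with a block of either the replicate number or the run of library numbers. Blood against endothelium gave 37 with no filter. SOX17-positive CD43+ cells against endothelium gave 7 with the replicate block. SOX17-negative against SOX17-positive CD43+ cells gave 3 with no filter, 3 with DESeq2 and 9 with limma-trend. Day 7 against day 4 gave 22 with no filter, 6 with the replicate block and 16 without the low day 4 library. The log2 ratio of the histone sum at endoderm day 2 over day 0 was 0.242 without the 5 polyadenylated members.

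With 1 library left out, the counts ranged from 1 to 7 for WT mesoderm day 2 over day 0, 1 to 2 for day 4 over day 2, and in KO 0 to 3 and 1 to 2. They ranged from 4 to 5, 12 to 16 and 1 to 2 for the successive endoderm steps. They ranged from 3 to 7 in WT and 4 to 11 in KO endothelium of day 12 over day 7, 19 to 24 for blood over endothelium, 1 to 6 for SOX17-positive CD43+ cells over endothelium, 1 to 3 between the CD43+ fractions, 23 to 28 for blood over day 7, 7 to 16 for day 7 over day 4, and 2 to 3 and 11 to 14 for the interactions. Depth limits the lower members, with 195 to 1499 histone counts per library.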

Other observations

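The single KO SOX17-CD34+CD43- library of day 12, which entered no test, had a histone sum of 40.2 CPM, of which 16.8 CPM lay on the 5 members known for polyadenylated forms. H1F0, a linker histone gene outside the clusters that is transcribed independently of replication, was 370 CPM at endoderm day 2 and 41.6 CPM at day 0 (log2 fold change 3.11 ± 0.25, edgeR adjusted p = 1.52e-07). In WT mesoderm H1F0 was 294 CPM at day 4 and 64.2 CPM at day 2 (2.20 ± 0.24, adjusted p = 1.47e-07), and in KO 286 CPM and 76.0 CPM (1.95 ± 0.24, adjusted p = 6.84e-07). Its change from day 0 to day 2 was higher in endoderm than in mesoderm by 2.83 ± 0.38 (adjusted p = 1.97e-05). SLBP was 60 CPM at endoderm day 7 and 47 CPM at day 4 (0.46 ± 0.11, adjusted p = 0.00723).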
